A study of Mus musculus with 8 samples.

Results

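C-type lectin receptors and Siglecs are cell-surface proteins that read sugars. Genes of the table were taken as members when their symbol begins with Clec or Siglec followed by a number or letter, or is Mgl2 or one of Cd209b to Cd209g, with Siglec5 left out. The rule found 43 of the 23284 genes of the table, and 27 of them were high enough to test. The values are from whole lungs of 8 mice. In 4 of them the transplanted bone marrow came from triply n/i/eNOS-/- donors, which lack the neuronal, inducible and endothelial nitric oxide synthases (called NOS-null marrow). In the other 4 the marrow came from wild-type donors (WT marrow). All 8 recipients were WT mice of the C57BL/6 strain and all had 3 days of hypoxia. The series title places the work in hypoxia-induced pulmonary hypertension and asks about the synthases of myeloid cells. The recipients' own lung cells kept the synthase genes, and the share of cells that came from the donor was not measured here. Lungs without hypoxia or without a transplant were not analysed here. Age and sex of the mice, and how the replicates of a group relate, are not given in the labels, so the p-values measure only the spread between these samples.

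C-type lectins hold a fold that often binds sugars, in many members with the help of calcium. One branch, with Dectin-1, Dectin-2 and Mincle, recognises fungal and mycobacterial sugars or glycolipids and signals through the kinase Syk and the adaptor Card9. A second branch, with DCIR and MICL, carries an inhibitory motif that recruits phosphatases. Other members take up sugars, mark dendritic cells, platelets or endothelium, or serve as ligands of natural killer (NK) cell receptors. Siglecs bind sialic acid, the sugar that caps many glycoproteins, and most of them restrain the immune cell that carries them. In the lung these receptors sit mainly on alveolar and interstitial macrophages, monocytes, neutrophils, dendritic cells and B cells, and a few on vessels.

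The unit below is the scaled read, a read divided by the authors' size factor of its library, and each library summed to between 7767065 and 8625142 of them. Among the 3 targeted genes, Nos2 had 13.3, 20.8, 40.4 and 43.5 scaled reads with NOS-null marrow, against 87.4, 115, 88.7 and 103 with WT marrow. Its log2 change was −1.84 (limma, adjusted p = 0.0221). Nos3, which endothelium of the recipient still makes, ranged from 177 to 219 with NOS-null marrow, against from 171 to 207 with WT marrow. Nos1 reached 1.09 in NOS-null replicate 4 and was listed at 0 in the other 7 libraries. The 4 genes that define lung tissue, among them Scgb1a1 of club cells and Sftpc of alveolar type 2 cells, were present in every library. NOS-null replicate 1 was by far the highest in neutrophil markers, and NOS-null replicates 1 and 2 were the lowest in B cell markers. The part of these differences in the results that follow was not tested. The summed neutrophil markers were 100115, 15433, 8323 and 10110 scaled reads in NOS-null replicates 1 to 4, whereas WT libraries had 3929 to 7743. The summed B cell markers were 143, 368, 1127 and 1166 with NOS-null marrow, against 1557 to 3197 with WT marrow.

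Measured per length, the members spanned a wide range. FPKM, the authors' read measure corrected for gene length and depth, allows levels of different genes to be set side by side. Clec2d, a ligand of an inhibitory NK receptor, was the highest member at 94.8 ± 15.4 FPKM with NOS-null marrow, against 96.8 ± 7.87 with WT marrow (SD, n = 4 each, as for all errors given with ±). The endothelial gene Clec14a came next at 101 ± 31.3 and 74.4 ± 13.04 FPKM with NOS-null and WT marrow. Those groups' spreads cover the gap between these genes, so their order is not fixed. Clec1a, at a mean of 46.0 FPKM over all 8 libraries, Clec3b at 43.2 and Clec7a at 39.3 formed the following step, and they too overlapped one another. Below them Clec4n averaged 20.3, Clec4d 17.8, Clec4a3 17.2, Clec11a 15.4, Mgl2 13.3 and Clec12a 11.9 FPKM over the 8 libraries. Their order differed between the groups. Clec4d averaged 28.8 ± 26.5 FPKM with NOS-null marrow, against 6.72 ± 4.38 with WT marrow, where it lay below Clec11a (19.1 ± 1.57) and Mgl2 (16.7 ± 1.93). The Siglecs of the rule were low in whole lung. Siglece averaged 10.9 ± 12.1 FPKM with NOS-null marrow, against 2.63 ± 0.778 with WT marrow, and Siglecg 1.36 ± 1.203 and 4.68 ± 1.59 with NOS-null and WT marrow, so which of them was higher depended on the group. Siglec1 averaged 0.896 FPKM over the 8 libraries.

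**Figure D1:**
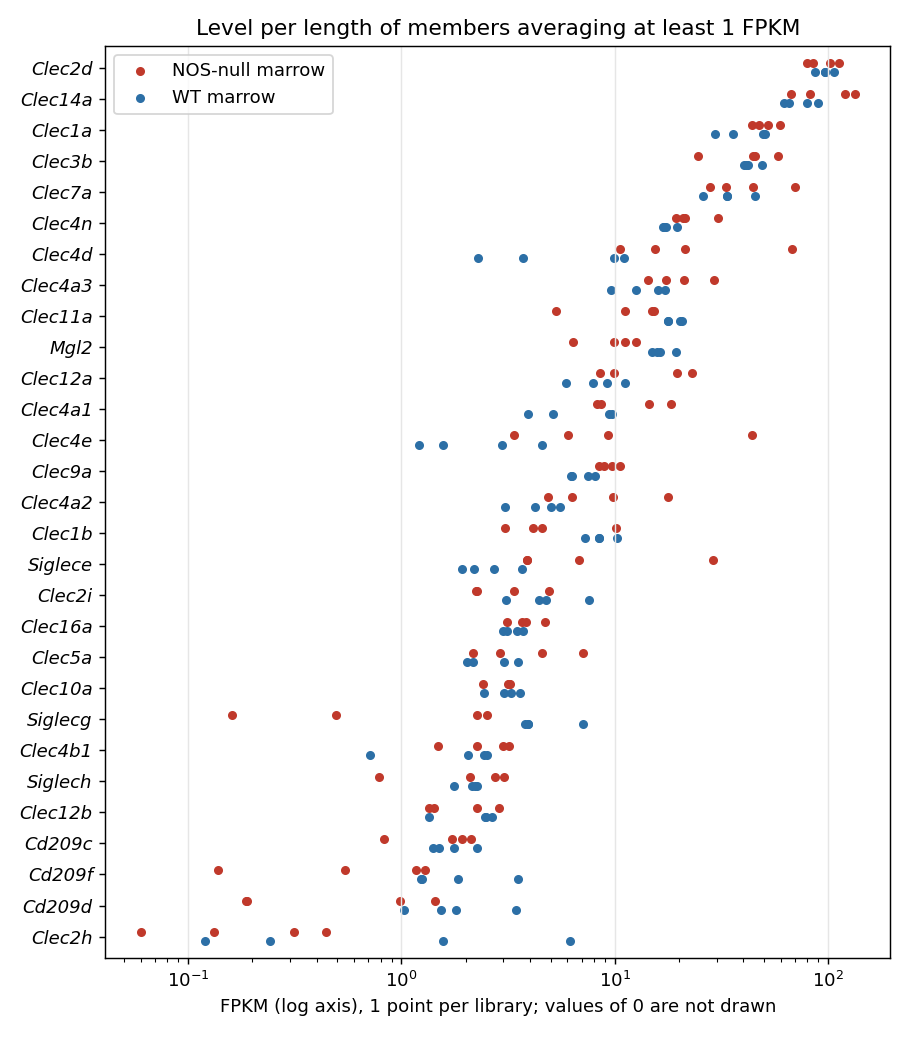
Level per length (FPKM, log axis) of every member averaging at least 1 FPKM, 1 point per library, with NOS-null marrow in red above WT marrow in blue, genes in order of their mean. Clec2d and Clec14a lead at 95.8 and 87.6 FPKM over the 8 libraries, and the NOS-null points of Clec4d, Clec4e, Siglece and Siglecg are spread wide.

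No tested member differed between the groups at an adjusted p under 0.05 (limma, Benjamini-Hochberg over all 14008 tested genes), in either direction. Over all tested genes 1.87% were called higher with NOS-null marrow and 2.18% lower. At an unadjusted p under 0.05, 14 of the 27 tested members (51.9%) stood out. Of these, 10 were higher with NOS-null marrow (37.0%, against 13.3% of all tested genes) and 4 were lower (14.8%, against 13.3% of all tested genes). The share of members on the higher side was thus above the background and the share on the lower side near it, but members carried by the same cells are not independent of each other. The lower share depended on which members were tested. Without the filter on low values it was 9 of 42 (21.4%, against 10.4% of all genes then tested), the 5 untested Cd209 genes being added, and it was 6 of 30 with the FPKM values (20.0%, against 13.2%). The higher count was not steady either. In the 27 members it was 8 without NOS-null replicate 1 (29.6%, against 11.6% of all tested genes), 5 without NOS-null replicate 2 (18.5%, against 9.94%), 6 without WT replicate 2 (22.2%, against 11.4%) and 5 without WT replicate 4 (18.5%, against 12.2%). With NOS-null replicates 1 and 2 both left out it was 6 (22.2%, against 8.13%). The 4 values of one group lay wholly above those of the other in 5 members (18.5%). Clec9a and Siglece were the 2 higher with NOS-null marrow (7.41%, against 7.82% of all tested genes), and Mgl2, Clec11a and Siglecg the 3 lower (11.1%, against 9.29%), shares near the background. The median log2 change of the 27 was 0.32, with 16 positive and 11 negative, beside a median of 0.0005 over all tested genes, and it was 0.25 without NOS-null replicate 1. In whole lung, fewer cells of a type and less RNA per cell cannot be told apart.

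**Figure D2:**
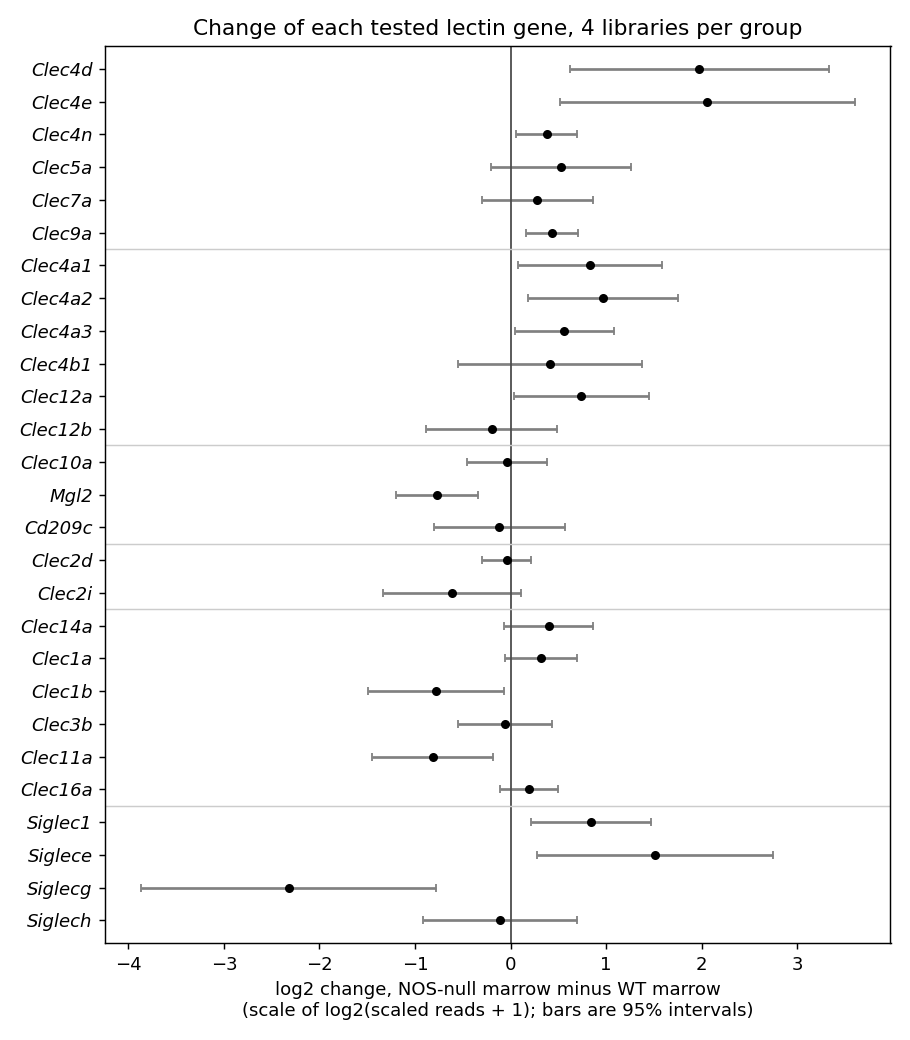
Log2 change of each of the 27 tested members, positive where NOS-null marrow was higher, with 95% intervals from limma (n = 4 per group), grouped by role. The largest differences are the positive ones of Clec4e (2.06), Clec4d (1.98) and Siglece (1.51) and the negative one of Siglecg (−2.32), all with wide intervals, while Mgl2 and Clec9a have smaller differences with narrow ones.

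The activating, Syk-linked receptors were all 6 tested and all had a positive log2 change, with a median of 0.48 (0.41 without NOS-null replicate 1). Of all 14008 tested genes, 7017 had a positive log2 change. At an unadjusted p under 0.05, 4 of the 6 were higher (66.7%, against 13.3% of all tested genes). None passed after adjustment. Each log2 change is a difference of group means of log2(scaled reads + 1), positive where NOS-null marrow was higher, and adding 1 makes it smaller for weakly read genes. Clec4e (Mincle), a receptor for mycobacterial cord factor and for a product of dying cells, had 857, 180.1, 65.1 and 117 scaled reads with NOS-null marrow, against 57.6, 23.4, 88.7 and 30.2 with WT marrow. The mean was 305 ± 371 with NOS-null marrow, against 49.996 ± 29.7 with WT marrow, and NOS-null replicate 1 alone held 70.3% of its group's sum. The groups overlapped, because NOS-null replicate 3 lay below WT replicate 3. The log2 change was 2.06 (SE 0.69, limma adjusted p = 0.102), and it was 1.33 without NOS-null replicate 1.

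Clec4d (MCL), which pairs with Mincle and helps it reach the surface, was high and low in the same libraries. It had 643, 201, 101 and 146 scaled reads with NOS-null marrow, against 93.4, 21.5, 104.5 and 35.0 with WT marrow. Its mean was 273 ± 250.3 with NOS-null marrow, against 63.6 ± 41.4 with WT marrow, and the log2 change was 1.98 (SE 0.61, limma adjusted p = 0.0834, and 1.44 without NOS-null replicate 1). Both genes were low in the same WT libraries, replicates 2 and 4, and high in NOS-null replicates 1 and 2. Clec4d and Clec4e were singled out here after their values were seen. They lie next to each other on chromosome 6, Clec4d at chr6:123262107-123275268 and Clec4e at chr6:123281789-123289871 (GRCm38, RefSeq).

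The promoters of this neighbouring pair are shown with those of Mgl2 and Siglecg. These 2 are the members with the lowest adjusted p and the largest negative change. Stretches around starts of genes of unlike pattern can thus be compared. Each stretch runs 5′ to 3′ on the gene's strand, from 250 bases before to 50 bases after a RefSeq start (GRCm38.p6). The Mgl2 stretch lies mostly inside its gene, whose annotated span begins at chr11:70130125. The start used for Siglecg also lies inside its annotated span, which begins at chr7:43408192. Capitals mark the core letters GAGGAA read by PU.1 and other ETS factors, which act widely in myeloid and B cells, on either strand. They also mark the interferon-stimulated element (in Clec4d, where it overlaps a GAGGAA), and TTGCNNAA of C/EBP factors and ACGTG of the hypoxia response element (both in Clec4e). The stretches lie at chr6:123261857-123262156 on the plus strand (Clec4d), chr6:123289822-123290121 on the minus strand (Clec4e), chr11:70130107-70130406 on the plus strand (Mgl2) and chr7:43407989-43408288 on the plus strand (Siglecg, the first of its 2 starts).
Clec4d: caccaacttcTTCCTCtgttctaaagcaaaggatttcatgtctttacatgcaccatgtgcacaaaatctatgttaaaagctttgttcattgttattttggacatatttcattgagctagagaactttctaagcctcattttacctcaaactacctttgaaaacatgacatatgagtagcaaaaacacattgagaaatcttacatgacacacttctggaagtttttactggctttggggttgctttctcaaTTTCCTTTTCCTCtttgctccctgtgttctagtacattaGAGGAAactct
Clec4e: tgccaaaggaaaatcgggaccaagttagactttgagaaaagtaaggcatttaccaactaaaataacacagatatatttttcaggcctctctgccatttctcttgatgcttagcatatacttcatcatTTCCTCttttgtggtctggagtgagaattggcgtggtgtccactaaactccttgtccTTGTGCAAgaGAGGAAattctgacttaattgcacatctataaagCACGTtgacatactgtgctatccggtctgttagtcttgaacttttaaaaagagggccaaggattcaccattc
Mgl2: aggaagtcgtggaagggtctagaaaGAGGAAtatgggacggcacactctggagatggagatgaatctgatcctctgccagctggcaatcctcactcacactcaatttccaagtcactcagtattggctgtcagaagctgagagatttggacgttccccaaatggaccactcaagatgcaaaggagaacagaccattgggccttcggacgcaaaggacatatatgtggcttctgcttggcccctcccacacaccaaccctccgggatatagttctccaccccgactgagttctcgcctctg
Siglecg: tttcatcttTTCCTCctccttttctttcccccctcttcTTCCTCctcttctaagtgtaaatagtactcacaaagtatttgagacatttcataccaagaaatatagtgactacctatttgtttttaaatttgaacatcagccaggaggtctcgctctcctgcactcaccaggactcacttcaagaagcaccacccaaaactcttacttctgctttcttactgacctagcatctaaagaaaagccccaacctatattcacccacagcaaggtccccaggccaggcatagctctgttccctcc
GAGGAA was found in the 4 stretches shown, while the stretch at the second Siglecg start held none of the motifs searched. Over the promoters of the table, searched on both strands, it stood in those of 31.3% of 27025 genes and in 15 of the 22 tested members that had an entry (68.2%), Siglece among them and Clec9a not. TTGCNNAA stood in 12.2% of genes and 6 of the 22, ACGTG in 21.8% of genes and 5 of the 22, the interferon-stimulated element in 3.99% of genes and 3 of the 22, and the NF-kB motif in 0.466% of genes and none of the 22. These matches describe letters only, and members on both sides of the comparison held them.

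The remaining Syk-linked receptors differed less. Clec4n (Dectin-2), which binds fungal mannans, had 163, 257, 175 and 185 scaled reads with NOS-null marrow, against 164, 142, 144 and 139.9 with WT marrow. The resulting log2 change was 0.38 (SE 0.14, limma adjusted p = 0.136), and NOS-null replicate 1, the library highest in Clec4e, was here the lowest of its group. Clec7a (Dectin-1), the beta-glucan receptor and the highest of these genes per length, had 1209.8, 776, 484 and 579 with NOS-null marrow, against 786, 584, 585 and 450.0 with WT marrow. NOS-null replicate 1 lay above every WT library and the other 3 within the WT range, and its log2 change of 0.28 (95% interval −0.30 to 0.86) became −0.16 without NOS-null replicates 1 and 2. Clec5a, which signals through the adaptor DAP12, had a log2 change of 0.53 (SE 0.33) that became −0.05 without the same pair of libraries.

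Clec9a was the only Syk-linked receptor whose groups did not overlap. It is the receptor (DNGR-1) by which cross-presenting dendritic cells sense the actin of dead cells. It had 248, 228, 197 and 208 scaled reads with NOS-null marrow, against 143, 148, 175 and 188 with WT marrow. Every NOS-null library lay above every WT library, by a narrow margin between NOS-null replicate 3 and WT replicate 4. Its mean was 220.3 ± 22.5 with NOS-null marrow, against 164 ± 21.6 with WT marrow, a log2 change of 0.43 (SE 0.12, limma adjusted p = 0.0675). The difference was 0.37 to 0.50 with each library left out in turn, so no single library carried it. As in Clec4e and Clec4d, NOS-null replicates 1 and 2 were the highest libraries, and without both the log2 change was 0.31. The 13 markers of conventional dendritic cells went both ways, 6 of them positive. At an unadjusted p under 0.05, 3 were higher and 5 lower with NOS-null marrow, against 13.3% of all tested genes each way.

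The DCIR group was classed with Clec12a and Clec12b, and not all 8 of these genes encode a receptor with the inhibitory motif. Of the 8, 6 were tested and 5 of these had a positive log2 change, with a median of 0.65 (0.56 without NOS-null replicate 1). At an unadjusted p under 0.05 there were 4, all higher with NOS-null marrow (66.7%, against 13.3% of all tested genes). None passed after adjustment or had groups apart. Clec12a (MICL), which senses uric acid crystals and damps myeloid cells, had 389, 329, 144 and 167 scaled reads with NOS-null marrow, against 188, 155, 133 and 100.2 with WT marrow. This gave a log2 change of 0.74 (SE 0.32, limma adjusted p = 0.169). NOS-null replicates 1 and 2 were high, and replicates 3 and 4 lay within the WT range. Clec4a3, of the DCIR group, had 258, 183, 126 and 159 with NOS-null marrow, against 138, 109.6, 151 and 86.0 with WT marrow, a log2 change of 0.56 (SE 0.23, limma adjusted p = 0.157).

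Clec4a2, which encodes DCIR itself and was chosen here after its values were seen, had 341, 189, 93.7 and 121 scaled reads with NOS-null marrow, against 106, 96.5, 80.8 and 58.6 with WT marrow. Its log2 change was 0.97 (SE 0.35, limma adjusted p = 0.123), and 0.62 without NOS-null replicate 1. Its neighbour Clec4a1 had a log2 change of 0.83 (SE 0.34), Clec4b1 0.41 (SE 0.43) at 2.84 to 14.6 scaled reads, and Clec12b −0.20 (SE 0.31). Thus Clec12b, low in every library, was the exception in direction. Clec4a4 and Clec4b2 did not reach the filter, with at most 5.13 and 2.18 scaled reads in any library. The Clec4a and Clec4b genes are near copies of each other on chromosome 6, so reads can be split between them. The annotated span of Clec12b (RefSeq) covers Clec1b and Clec9a and overlaps one end of Clec1a. Its few reads are thus uncertain, since the use of strand in counting is not given. In the GENCODE annotation Clec1b and Clec9a also overlap each other on the same strand, so reads could be shared between them.

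**Figure D3:**
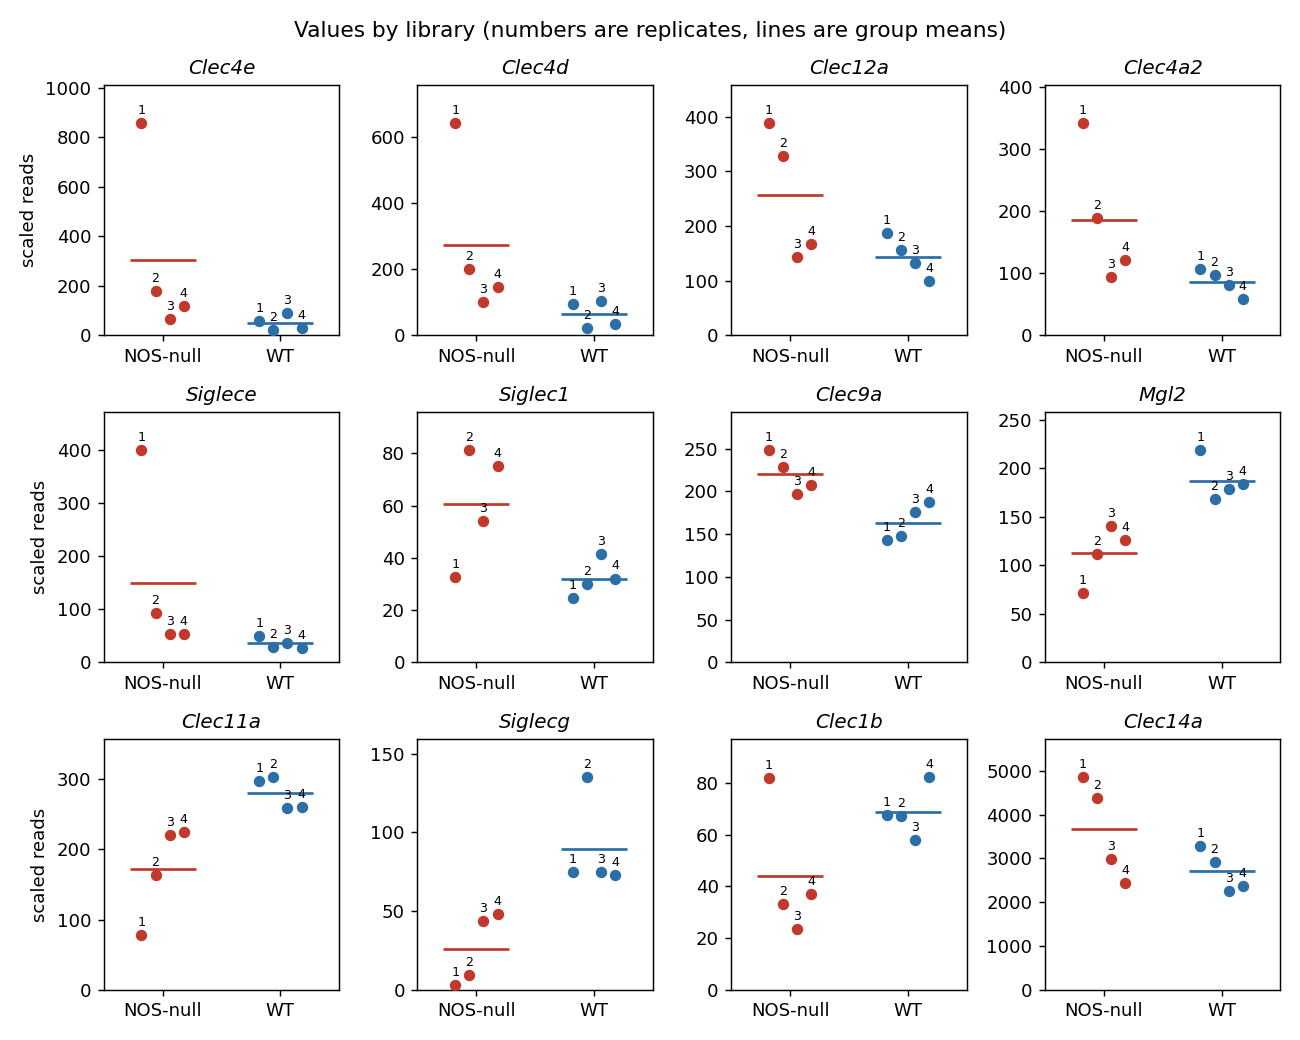
Scaled reads of 12 members in every library (red, NOS-null marrow; blue, WT marrow; numbers are replicates and lines are group means; axes start at 0). In Clec4e, Clec4d and Siglece NOS-null replicate 1 lies far above the rest (857, 643 and 399 scaled reads). No library lies as far from its group in Clec9a and Mgl2. The groups do not overlap in Siglece, Clec9a, Mgl2, Clec11a and Siglecg.

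The sugar-binding uptake receptors gave the lowest adjusted p of the family. Mgl2, a galactose-type lectin of macrophages and some dendritic cells that takes up glycoproteins with exposed N-acetylgalactosamine, had 71.8, 111, 141 and 126 scaled reads with NOS-null marrow, against 219, 169, 178 and 184 with WT marrow. Every NOS-null library lay below every WT library. The mean was 113 ± 29.8 with NOS-null marrow, against 187 ± 21.7 with WT marrow, a log2 change of −0.77 (SE 0.19, 95% interval −1.20 to −0.34, limma adjusted p = 0.0534). It missed the threshold narrowly and crossed it with limma's robust setting (adjusted p = 0.0480), without NOS-null replicate 1 (−0.57, adjusted p = 0.0443) and without NOS-null replicate 3 (−0.89, adjusted p = 0.0380). With 1 library left out its limma adjusted p was 0.0380 to 0.155.

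Clec10a, the other mouse galactose-type lectin, is also on chromosome 11, and its groups overlapped. It had 34.9, 34.4, 34.5 and 26.1 scaled reads with NOS-null marrow, against 38.7, 32.8, 35.5 and 26.5 with WT marrow. Its log2 change was −0.04, with an interval of −0.45 to 0.38. Cd209c, the only other one tested, had a log2 change of −0.12 (SE 0.31). The relatives of DC-SIGN are otherwise rare in lung, and Cd209b, Cd209d, Cd209e, Cd209f and Cd209g did not pass the filter. Cd209b (SIGNR1), a receptor for dextran and capsular sugars on splenic and lymph node macrophages, was the only untested member whose groups did not overlap. It had 0, 0, 0.986 and 4.35 scaled reads with NOS-null marrow, against 11.9, 4.68, 8.87 and 5.67 with WT marrow, where 1 read is worth 0.937 to 1.09. Cd209f had 1.04 to 9.79 with NOS-null marrow, against 9.37 to 26.6 with WT marrow, and Cd209d 1.03 to 7.89 and 5.67 to 18.9 with NOS-null and WT marrow. All 5 untested Cd209 genes had the lower mean with NOS-null marrow, but they are near copies that can share reads. Cd209a, the member of that cluster outside the rule and a marker of monocyte-derived dendritic cells, fell to 17.5 ± 9.57 scaled reads with NOS-null marrow, against 86.5 ± 16.2 with WT marrow (log2 change −2.37, SE 0.34, limma adjusted p = 0.00947). Clec4f of Kupffer cells reached 2.05 scaled reads at most, and Clec4g (LSECtin) 2.81 to 11.8 over all libraries.

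The Clec2 ligands, which engage NKR-P1 receptors, gave no difference larger than the spread between libraries. Clec2d (Clr-b), which holds NK cells back from healthy cells, had 953, 671, 716 and 859 scaled reads with NOS-null marrow, against 819, 733, 819.9 and 896 with WT marrow. The resulting log2 change was −0.04, with a 95% interval of −0.30 to 0.22. Clec2i (Clr-g) had 14.4, 14.6, 21.7 and 31.5 with NOS-null marrow, against 19.9, 48.7, 30.5 and 28.4 with WT marrow (log2 change −0.61, SE 0.32, limma adjusted p = 0.252), and it overlaps BC035044 on the other strand. Clec2e, Clec2g and Clec2l stayed at or below 9.37 scaled reads. Clec2h did not pass the filter but had 101 and 25.5 scaled reads in WT replicates 2 and 4, against 0.986 to 7.29 with NOS-null marrow and 1.97 to 3.97 in the other WT libraries. On the side of the NK cell, Klrb1c (NK1.1), from the same receptor family as the partner of Clec2d, fell to 13.4 ± 6.85 scaled reads with NOS-null marrow, against 39.7 ± 8.35 with WT marrow (log2 change −1.62, SE 0.36, limma adjusted p = 0.0402). That call was lost without the filter on low values, with the replicate number as a block (adjusted p = 0.0590), without NOS-null replicate 2 or 3, and with any 1 WT library left out. Its adjusted p was 0.0193 to 0.125 with 1 library left out. It was the only called gene of the 4 tested in the list of NK receptors set beside the Clec2 genes. The summed NK cell markers were 186 to 340 with NOS-null marrow, against 390 to 584 with WT marrow.

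Among the vessel, platelet, secreted and other members, 6 of 8 were tested, with a median log2 change of 0.07. Clec14a, an endothelial protein of vessel growth, had 4847, 4378, 2994 and 2434 scaled reads with NOS-null marrow, against 3272, 2906, 2258 and 2372 with WT marrow. The groups overlapped, and the log2 change was 0.40 (SE 0.21, limma adjusted p = 0.246), or 0.015 without NOS-null replicates 1 and 2. Clec1a, also of endothelium, had 1520.5, 1127, 1219 and 1337 with NOS-null marrow, against 920.1, 759.6, 1269 and 1302 with WT marrow (log2 change 0.32, SE 0.17, limma adjusted p = 0.255). Only WT replicates 1 and 2 lay clearly lower. Of 12 endothelial markers, Vwf was called higher and Emcn lower with NOS-null marrow, and their summed level was 34539 to 40831 with NOS-null marrow, against 33557 to 36723 with WT marrow.

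Clec11a, a secreted growth factor of bone marrow stroma known as osteolectin, had 77.9, 163, 219.9 and 225 scaled reads with NOS-null marrow, against 297, 303, 259 and 261 with WT marrow. The groups did not overlap, and the log2 change was −0.81 (SE 0.29, limma adjusted p = 0.112), or −0.47 without NOS-null replicate 1. Fibroblast markers were also lowest in that library, summing to 16001 there, against 25186 to 29701 in the other NOS-null libraries and 26792 to 31511 with WT marrow. Their part in the Clec11a difference was not tested. Clec1b (CLEC-2), the podoplanin receptor of platelets, had 82.0, 33.3, 23.7 and 37.0 with NOS-null marrow, against 67.6, 67.4, 58.1 and 82.2 with WT marrow, and was chosen here after its values were seen. NOS-null replicates 2 to 4 were the lowest of all and replicate 1 was among the highest. This gave a log2 change of −0.78 (SE 0.32, limma adjusted p = 0.157), and −1.12 without NOS-null replicate 1, where it passed the threshold (adjusted p = 0.0217, in a range of 0.0217 to 0.304 with 1 library left out). Its ligand gene Pdpn had a log2 change of 0.15 (SE 0.11). Clec3b (tetranectin), which binds plasminogen, had a log2 change of −0.06 (SE 0.22), and Clec16a, a regulator of mitophagy and not a sugar receptor, 0.19 (SE 0.14). Clec3a and Clec18a did not pass the filter, with at most 1.09 and 1.04 scaled reads.

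Of the 5 Siglecs, 4 were tested and they went in both directions. Siglece, an inhibitory receptor of neutrophils, monocytes and macrophages, had 399, 93.7, 53.2 and 53.3 scaled reads with NOS-null marrow, against 50.7, 30.0, 37.4 and 26.5 with WT marrow. Every NOS-null library lay above every WT library, though replicates 3 and 4 only just. The log2 change was 1.51 (SE 0.55, limma adjusted p = 0.124), NOS-null replicate 1 held 66.6% of its group's sum, and without it the log2 change was 0.86. Siglece overlaps Ctu1 in the annotation, which adds to its uncertainty. Siglec1 (CD169, sialoadhesin), an interferon-inducible receptor of macrophages, was named after its values were seen. It had 32.8, 81.2, 54.2 and 75.0 with NOS-null marrow, against 24.8, 30.0, 41.4 and 32.1 with WT marrow. Here NOS-null replicate 1 was the lowest of its group, the reverse of Siglece. Its log2 change was 0.84 (SE 0.28, limma adjusted p = 0.102), and 1.11 without NOS-null replicate 1, where it passed the threshold (adjusted p = 0.0300, in a range of 0.0300 to 0.239 with 1 library left out).

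Siglecg, the Siglec of B cells that restrains signalling of the B cell receptor, had 3.08, 9.37, 43.4 and 47.9 scaled reads with NOS-null marrow, against 74.5, 135, 74.9 and 72.8 with WT marrow. Every NOS-null library lay below every WT library, and NOS-null replicates 1 and 2 were far below the other two. Its mean was 25.9 ± 23.0 with NOS-null marrow, against 89.3 ± 30.4 with WT marrow, a log2 change of −2.32 (SE 0.70, 95% interval −3.87 to −0.78, limma adjusted p = 0.0758). The log2 change was −1.63 without NOS-null replicate 1 and −0.90 without replicates 1 and 2 (adjusted p = 0.120). It passed the threshold without NOS-null replicate 3 (−2.77, adjusted p = 0.0482) and without replicate 4 (−2.82, adjusted p = 0.0408), the libraries least different from WT marrow, and its adjusted p was 0.0408 to 0.188 with 1 library left out. Siglech, a marker of plasmacytoid dendritic cells that was also chosen after its values were seen, had 14.4, 38.5, 50.3 and 55.5 with NOS-null marrow, against 41.7, 39.3, 32.5 and 40.6 with WT marrow (log2 change −0.11, SE 0.36). Siglec15, known from osteoclasts, was listed at 0 in every library, where 3 reads would have been worth 2.81 to 3.26 scaled reads.

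Across libraries the tested members fell into a few patterns. NOS-null replicate 1 held the highest value of 14 of the 27 and the lowest of 6, and WT replicate 4 held the lowest value of 9. The Syk-linked receptors had median deviations from the gene's mean of 1.03, 0.57, −0.24 and 0.14 (log2) in NOS-null replicates 1 to 4, against −0.10, −0.43, −0.09 and −0.58 in WT replicates 1 to 4. The DCIR group with Clec12a and Clec12b gave 0.95, 0.62, −0.26 and 0.09 with NOS-null marrow, against −0.01, −0.25, 0.11 and −0.92 with WT marrow. In both classes NOS-null replicate 3 lay below some of the WT libraries, and the highest medians were those of NOS-null replicates 1 and 2. Without this pair of libraries the log2 change was 1.196 for Clec4d, 0.98 for Clec4e, 0.59 for Siglece, 0.35 for Clec4a2 and 0.14 for Clec12a, each smaller than with all 8. It was 0.31 for Clec9a (0.43 with all 8), −0.48 for Mgl2 (−0.77) and −0.33 for Clec11a (−0.81), also smaller in size. None of the members just listed, in either direction, changed sign. Among the others, Clec7a (−0.16) and Clec5a (−0.05) of the Syk-linked class did. Siglec1 (0.99, against 0.84 with all 8) and Clec1b (−1.18, against −0.78 with all 8) grew in size.

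**Figure D4:**
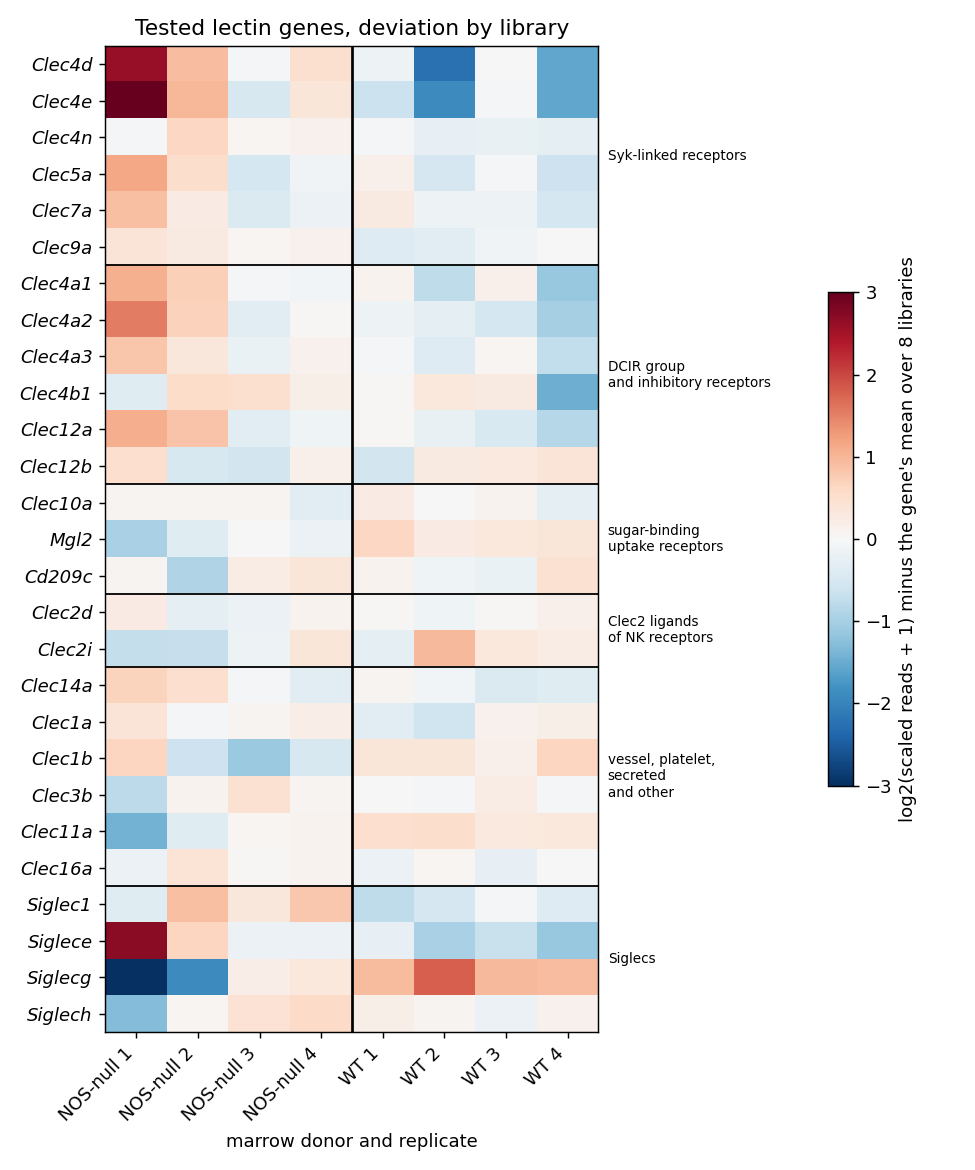
Deviation of each tested member in each library from the gene's mean over the 8 libraries (log2, red above and blue below), with NOS-null libraries left of WT libraries and genes grouped by role. The colour scale stops at 3, which Clec4e exceeds in NOS-null replicate 1 (3.23). The red block in the upper left is NOS-null replicates 1 and 2 in the Syk-linked and DCIR classes.

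Marker lists of the cells that carry these receptors were read beside them. All 10 tested neutrophil markers had a positive log2 change (median 2.02), 8 had an unadjusted p under 0.05 and none was called. Over all tested genes 13.3% were higher and 13.3% lower at that unadjusted p. As a share of the neutrophil marker sum, the Mincle pair and Siglece overlapped widely between the groups. Clec4e amounted to 0.856, 1.17, 0.782 and 1.16% of the summed neutrophil markers with NOS-null marrow, against 0.835, 0.552, 1.15 and 0.770% with WT marrow. Clec4d amounted to 0.642 to 1.44% with NOS-null marrow, against 0.508 to 1.35% with WT marrow. Siglece amounted to 0.398 to 0.640% with NOS-null marrow, against 0.484 to 0.734% with WT marrow. These ratios describe how the genes moved with the markers, and the part of neutrophils in the differences was not tested. Of 14 monocyte and interstitial macrophage markers 12 had a positive log2 change (median 0.49) and Lyve1 was called higher, and their sum was 6968 to 11213 with NOS-null marrow, against 4473 to 6701 with WT marrow. Clec4a3 amounted to 1.63 to 2.42% of that sum with NOS-null marrow, against 1.86 to 2.37% with WT marrow. Other pairings were less even, with NOS-null replicate 1 at an extreme. Clec4a2 amounted to 1.34 to 3.20% of the same sum with NOS-null marrow, against 1.27 to 1.64% with WT marrow. Clec4e amounted to 0.934 to 8.04%, against 0.398 to 1.39%, and Clec4d to 1.44 to 6.03%, against 0.366 to 1.64%. Of the neutrophil sum Clec12a amounted to 0.388 to 2.13% with NOS-null marrow, against 1.72 to 3.67% with WT marrow. Markers of alveolar macrophages, which carry Clec7a and Clec4n, summed to 2706 to 3168 with NOS-null marrow, against 2480 to 2704 with WT marrow, and of 11 tested Ear2 was called higher and Siglec5 lower. That sum is mostly Car4, Ctsk and Ear2, and at an unadjusted p under 0.05 the list held 3 genes higher and 4 lower, so it did not move one way. T cell markers summed to 482 to 1522 with NOS-null marrow, against 344 to 552 with WT marrow, with none of 9 called.

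The lower members also stood beside marker lists. All 9 tested B cell markers had a negative log2 change (median −2.23), 8 with an unadjusted p under 0.05 and none called. Over all tested genes 13.3% were lower at that unadjusted p. Siglecg amounted to 2.16, 2.55, 3.85 and 4.10% of the summed B cell markers with NOS-null marrow, against 3.66, 4.22, 4.08 and 4.68% with WT marrow, so the ranges overlapped. The part of B cells in the Siglecg difference was not tested. For Clec1b the platelet markers summed to 1876, 888, 586 and 896 with NOS-null marrow, against 1320, 1552, 1142 and 1373 with WT marrow. Clec1b amounted to 3.75 to 4.37% of them with NOS-null marrow, against 4.34 to 5.99% with WT marrow.

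Mgl2 and Clec9a share a marker list, that of conventional dendritic cells. Its 13 genes had a median log2 change of −0.15. Only Cd209a was called (lower), and it was named above as a marker of monocyte-derived dendritic cells. The list summed to 7543 to 9703 with NOS-null marrow, against 6338 to 8129 with WT marrow. That sum is mostly Cd24a (2968 to 6348 scaled reads), which epithelium also makes. Mgl2 amounted to 0.740 to 1.87% of it with NOS-null marrow, against 2.19 to 2.91% with WT marrow, ranges that did not overlap. Clec9a amounted to 2.48 to 2.63% with NOS-null marrow, against 1.79 to 2.97% with WT marrow. The part of these cells in either difference was not tested. The plasmacytoid dendritic cell markers summed to 4941 to 5283 with NOS-null marrow, against 5275 to 5509 with WT marrow, mostly Tcf4, which many cells make.

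**Figure D5:**
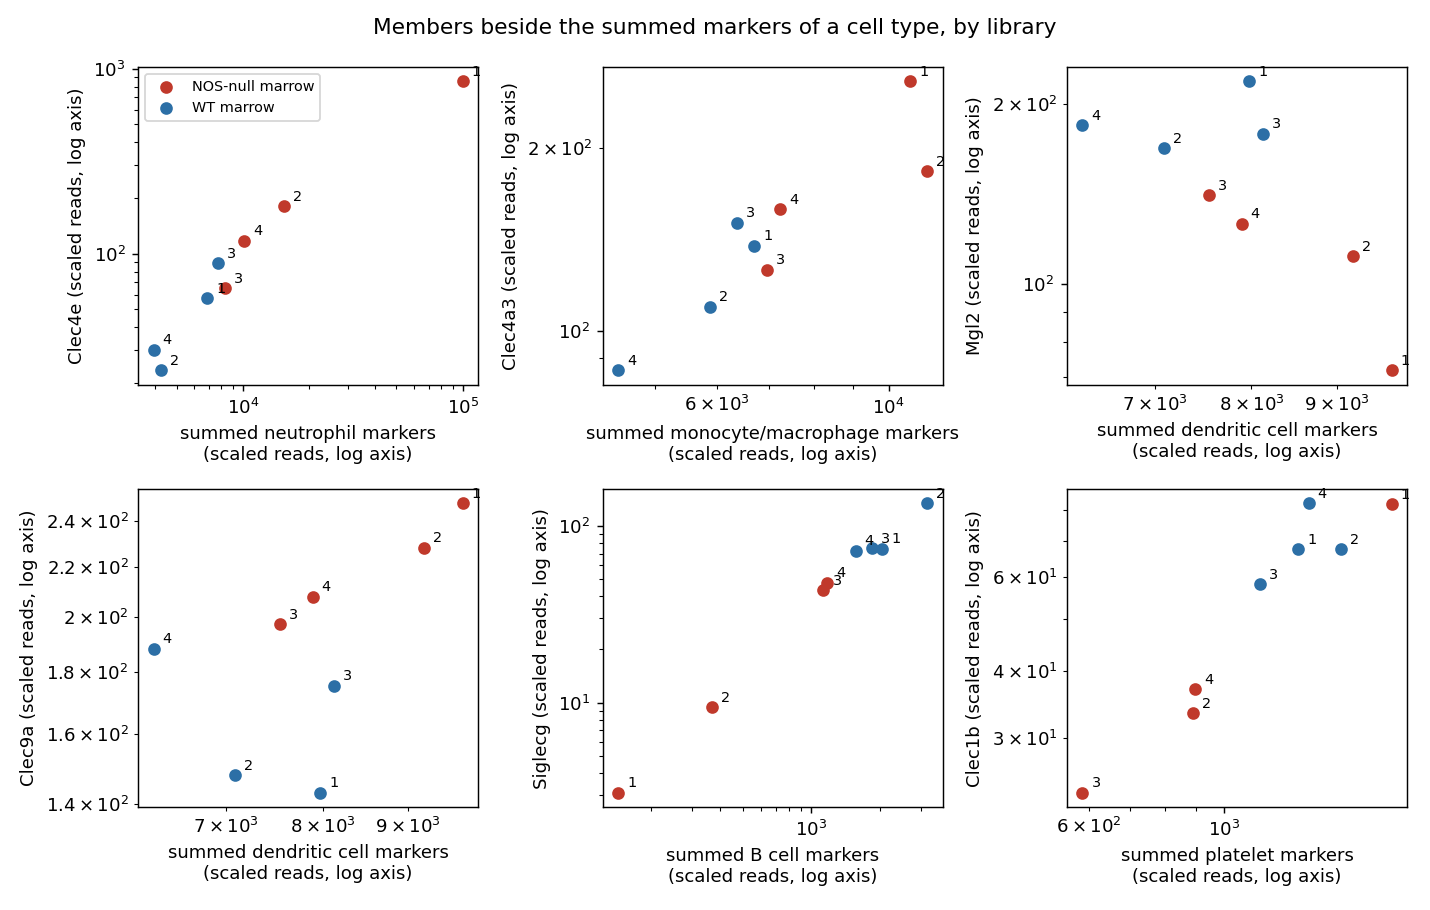
Scaled reads of 6 members against the summed scaled reads of a marker list, by library (both axes logarithmic; red, NOS-null marrow; blue, WT marrow; numbers are replicates). Clec4e, Siglecg and Clec4a3 climb with their list across both groups, whereas the Mgl2 values with NOS-null marrow (71.8 to 141) lie below those with WT marrow (169 to 219) at overlapping dendritic cell marker sums.

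Below the receptors, 1 signalling gene was called. Of 15 tested Syk and adaptor genes, 13 had a positive log2 change (median 0.25) and Card9 was the only one called. Card9, the adaptor through which Dectin-1, Dectin-2 and Mincle activate NF-kB, had 132, 63.5, 59.2 and 78.3 scaled reads with NOS-null marrow, against 27.8, 19.7, 27.6 and 19.9 with WT marrow. It rose to a mean of 83.3 ± 33.6 with NOS-null marrow, against 23.7 ± 4.59 with WT marrow (log2 change 1.71, SE 0.26, limma adjusted p = 0.0122), and the groups were well apart. The change was 1.47 to 1.85 with each library left out in turn, and only without WT replicate 2 did it miss the threshold (adjusted p = 0.05001, the highest of these settings). Lyn had a log2 change of 0.09 (SE 0.16) and Prkcd 0.29 (SE 0.11). None of the 5 genes of inhibitory phosphatase signalling was called, and the 2 highest, Ptpn11 and Inpp5b, had log2 changes of 0.04 (SE 0.07) and 0.18 (SE 0.07).

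Among lectins outside the rule, 20 of 27 further C-type lectin proteins were tested, with a median log2 change near 0 and Cd209a as the only call. The collectins Sftpa1 and Sftpd, the surfactant lectins of alveolar fluid, had log2 changes of 0.11 (SE 0.12) and 0.01 (SE 0.10). Of 7 other sialic acid binding lectins, Siglec5, which is SiglecF of eosinophils and alveolar macrophages, fell to 43.1 ± 7.91 scaled reads with NOS-null marrow, against 125 ± 17.4 with WT marrow (log2 change −1.52, SE 0.17, limma adjusted p = 0.00248). Cd33 had 1109, 262, 141 and 162 with NOS-null marrow, against 69.6, 76.8, 91.6 and 54.8 with WT marrow, in the order seen for Siglece among the NOS-null libraries, with a log2 change of 1.97 (SE 0.54, limma adjusted p = 0.0626). Of 23 tested genes of sialic acid synthesis and transfer, the ganglioside synthase St3gal5 rose (430.1 ± 39.8 with NOS-null marrow, against 324 ± 12.9 with WT marrow, limma adjusted p = 0.0363). The sialic acid synthase Nans fell (216 ± 38.0 with NOS-null marrow, against 349 ± 54.7 with WT marrow, limma adjusted p = 0.0364). Both calls were lost without NOS-null replicate 2, without NOS-null replicates 1 and 2 together, and with any 1 WT library left out. That of St3gal5 was also lost without NOS-null replicate 1 or 4 and with the replicate number as a block (adjusted p = 0.0617). The list's median log2 change was −0.05, with 8 of 23 positive.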

How the data were processed

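Whole-lung RNA of 8 mice was sequenced and sorted into groups by sample title, because the design text gives both groups the same donor. Per the labels' protocols, mRNA was taken up on Dynabeads and read as 75 bp single ends. Per the submitters' processing notes, CASAVA 1.8.2, TopHat2 2.0.13, Bowtie2 2.2.3, SAMtools 0.1.19 and Cufflinks 2.2.1 were used with mm10. Annotation, settings and strand use are not given in these sources. The deposited signal values are on the read scale after the authors' division by a size factor. No count model was used, since whole reads could not be recovered for all values. The deposited FPKM values of the authors served to compare levels between genes and as an alternative.

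The test was limma 3.58.1 (R 4.3.3, trend, not robust) on log2(scaled reads + 1) of the 14008 genes reaching 10 in 4 or more libraries, with Benjamini-Hochberg adjustment over all of them. The procedure was tested on simulated data. Alternatives were a pseudocount of 5, no filter, a mean of at least 50, TMM factors, FPKM with a pseudocount of 0.1, a replicate block, robust fitting, and libraries left out. Members and gene lists were chosen with earlier results of these data known. Given library by library were members with groups apart and the 2 of highest mean FPKM in each role class, and others are marked as chosen after their values were seen. Of other lists, called genes, or else the highest, were named. RefSeq promoters (GRCm38.p6, 300 bases) matched 35 of the 43 members.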

Additional observations from a re-analysis of the deposited data

Results flagged for a closer look

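In 32 members, the 64 groups of 4 libraries were searched for a library far from the other 3 of its group, and 6 were found. The rule compares the gap to the nearest library with the group's range, and flags about 1 in 20 for independent, normally distributed values. These scaled reads were not on a log scale and the members share libraries, so the 6 cannot be set against that rate. Clec4e in NOS-null replicate 1 (857.1 scaled reads) and Siglece in the same library (398.8) were far above the other NOS-null libraries. Clec10a in NOS-null replicate 4 (26.1) was below its group. Siglecg in WT replicate 2 (134.9) and Clec4n in WT replicate 1 (163.9) were above the other WT libraries, and Clec12b in WT replicate 1 (14.9) was below them.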

How the results depend on the processing

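No member was called with the other pseudocount, without the filter on low values (42 members tested), with a mean of at least 50, with TMM scaling, with the FPKM table or with the replicate block. With each library left out in turn, 0 to 1 members were called higher (Siglec1) and 0 to 2 lower (Clec1b, Mgl2 and Siglecg in different settings). Robust fitting called 1 lower (Mgl2), and leaving out both NOS-null replicates 1 and 2 called 1 lower (Clec1b). The count over all genes was 567 as reported, 135 with the replicate block, 181 without NOS-null replicates 1 and 2 together, and 71 to 798 with 1 library left out. Members with differences near 0 changed sign when a library was left out, with ranges of −0.26 to 0.17 (Cd209c), −0.14 to 0.063 (Clec10a), −0.13 to 0.038 (Clec2d), −0.22 to 0.19 (Clec3b), −0.0046 to 0.61 (Clec4b1) and −0.32 to 0.30 (Siglech). Without NOS-null replicates 1 and 2, Cd209c was at 0.24, Clec3b at 0.25, Siglech at 0.45, Clec5a at −0.052 and Clec7a at −0.16. The cause of these changes was not tested. Whether the replicate numbers pair the samples is not given in the labels, and the main fit did not pair them. Same-numbered libraries had correlations of deviations of 0.0428, 0.169, −0.00266 and 0.151. Differently numbered libraries had −0.18 to 0.112, so 0.169 and 0.151 were the highest of all, and these values cannot decide the question. Among all named genes followed through the alternatives, the block ended only the calls of Klrb1c and St3gal5. The calls of Nos2, Vwf, Emcn, Lyve1 and Ear2 were not followed through them. Most of the 16 untested members rest on few reads, 1 read being worth 0.937 to 1.09 scaled reads. Tested without the filter, Cd209b, Cd209d, Cd209e, Cd209f and Cd209g (lower) and Clec4b2 (higher) had an unadjusted p under 0.05.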

Other observations

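St6galnac1, a sialyltransferase of mucin-type sugars, failed the filter narrowly, with 12.3, 20.8, 10.8 and 9.79 scaled reads with NOS-null marrow, and was listed at 0 in all 4 WT libraries. Klk1 had 246 and 71.8 scaled reads in WT replicates 2 and 4, the libraries in which Clec2h was highest, against 3.94 to 12.5 with NOS-null marrow and 6.90 and 9.94 in WT replicates 3 and 1. Both were noticed after their values were seen and were not tested.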
